A study of Mus musculus with 2 samples.

Results

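Cell cycle inhibitors and p53-linked genes were followed in mouse hepatocytes grown in 3D culture: the inhibitor genes Cdkn1a, Cdkn1b, Cdkn2a, Cdkn2b and Cdkn2c, the p53 gene Trp53, and its targets Mdm2 and Ccng1. These 8 of 28692 listed genes were taken by symbol, and all 8 were found in both libraries. Primary hepatocytes of C57BL/6 mice were embedded in Matrigel and kept in one of 2 media, with 1 single-cell library made from each. Both media held 25 ng/mL EGF and 50 ng/mL HGF, which are hepatocyte mitogens, with 10 uM of the ROCK inhibitor Y27632, 1 uM of the TGF-beta receptor inhibitor A83-01 and 100 mM nicotinamide. Expansion medium added 3 uM of the GSK3 inhibitor CHIR99021 and 100 ng/mL TNFa. Induction medium left both out and held 3 uM of the glucocorticoid dexamethasone. The labels name no number of animals, passage or time in culture. With 1 library per medium there is no replicate check, so no p-value is given, and a difference between media cannot be told apart from a difference between libraries. Intervals are at 95% and cover counting error only.

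Cyclin-dependent kinases drive cells from G1 into S phase by phosphorylating the retinoblastoma protein, and dedicated inhibitors hold them back. Cdkn1a (p21) and Cdkn1b (p27) belong to the CIP/KIP family, which binds cyclin-CDK complexes. Cdkn2a (p16INK4a), Cdkn2b (p15INK4b) and Cdkn2c (p18INK4c) belong to the INK4 family, which binds CDK4 and CDK6. From another first exon, Cdkn2a also encodes p19ARF, which blocks MDM2. The p53 protein switches on Cdkn1a, Ccng1 (cyclin G1) and Mdm2, and the MDM2 ubiquitin ligase in turn marks p53 for degradation. In the liver, p21 is known for limiting hepatocyte division after injury or partial hepatectomy, and the Cdkn2a locus for its rise in senescent cells. p53 is controlled largely at the protein level, which RNA counts do not measure.

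Promoter sequence is shown for Cdkn1a, Mdm2, Ccng1 and Trp53 because these genes form the p53 circuit and the window shown for each holds a match to the p53 half-site. The windows are from RefSeq on GRCm38.p6 and run from 250 bases before to 50 bases after a transcript start. All 8 genes matched an entry, with 11 windows in all. Each is written 5′ to 3′ on the gene's own strand, with the matches in capitals. The Cdkn1a window lies at chr17:29090729-29091028 on the plus strand, at the more upstream of its 2 listed starts. The window at the other Cdkn1a start, chr17:29093519-29093818, held no match and is not shown. The Mdm2 window lies at chr10:117710709-117711008 and the Ccng1 window at chr11:40755237-40755536, both on the minus strand. The Trp53 window lies at chr11:69580109-69580408 on the plus strand.
Cdkn1a: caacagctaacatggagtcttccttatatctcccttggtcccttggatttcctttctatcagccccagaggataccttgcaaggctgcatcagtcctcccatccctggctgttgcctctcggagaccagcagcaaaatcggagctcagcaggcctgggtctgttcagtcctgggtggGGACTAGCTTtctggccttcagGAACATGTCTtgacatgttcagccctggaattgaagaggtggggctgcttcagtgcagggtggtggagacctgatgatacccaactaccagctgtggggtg
Mdm2: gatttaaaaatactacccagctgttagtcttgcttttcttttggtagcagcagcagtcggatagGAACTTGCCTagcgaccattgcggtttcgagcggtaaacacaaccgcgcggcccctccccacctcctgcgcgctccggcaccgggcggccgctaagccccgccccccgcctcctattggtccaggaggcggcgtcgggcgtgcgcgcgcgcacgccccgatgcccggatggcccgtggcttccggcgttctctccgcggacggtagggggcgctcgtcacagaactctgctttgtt
Ccng1: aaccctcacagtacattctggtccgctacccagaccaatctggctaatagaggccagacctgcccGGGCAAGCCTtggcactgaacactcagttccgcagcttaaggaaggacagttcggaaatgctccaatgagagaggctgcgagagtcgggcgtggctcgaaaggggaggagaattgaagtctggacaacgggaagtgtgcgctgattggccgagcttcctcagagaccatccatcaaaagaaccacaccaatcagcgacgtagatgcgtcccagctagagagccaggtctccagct
Trp53: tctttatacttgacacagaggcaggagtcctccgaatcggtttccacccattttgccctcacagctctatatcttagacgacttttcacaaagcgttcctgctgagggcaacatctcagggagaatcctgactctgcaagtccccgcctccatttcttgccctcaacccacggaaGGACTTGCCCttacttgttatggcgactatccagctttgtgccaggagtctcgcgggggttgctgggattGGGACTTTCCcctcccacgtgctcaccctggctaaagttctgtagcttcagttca
The Cdkn1a window shown holds 2 half-sites, which begin 73 and 51 bases before the upstream start. The Mdm2 match begins 186 bases before the start, the Ccng1 match 185 bases before it and the Trp53 match 75 bases before it. The Trp53 window also holds a match to the NF-kB consensus, which begins 5 bases before the start and is in capitals as well. Half-sites were searched by the p53 half-site consensus, which reads the same on both strands. It was found in 4 of the 11 windows, against 8.36% of 32851 windows of the same length. Counted by gene, 9.55% of 27025 genes held a half-site, and so did 7 of the 22 genes with a window on a list of other p53 targets, or 31.8%. Other words were searched on both strands. The NF-kB consensus was in 0.155% of all windows, and among the 11 in that of Trp53 only. The palindromic glucocorticoid response element and the TCF word CTTTGAT were in 0.475% and 3.73% of all windows and in 0 of the 11. The E2F words TTTGGCGC and TTTCCCGC were in 1.56% of all windows and in 1 of the 11, where TTTCCCGC begins 99 bases before the upstream Cdkn2a start. The cell cycle homology word TTTGAA was in 17.9% of all windows and in 1 of the 11, that of Cdkn2b. These are matches of letters, not measured binding sites.

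By GENCODE on GRCm38, Cdkn1a (ENSMUSG00000023067) lies on chromosome 17 at 29090976 to 29100727 and Cdkn1b (ENSMUSG00000003031) on chromosome 6 at 134920401 to 134925513. Cdkn2a (ENSMUSG00000044303) and Cdkn2b (ENSMUSG00000073802) are neighbours on the minus strand of chromosome 4, at 89274471 to 89294653 and 89306299 to 89311039. Cdkn2c (ENSMUSG00000028551) lies farther along chromosome 4 at 109660876 to 109667189. Trp53 (ENSMUSG00000059552) and Ccng1 (ENSMUSG00000020326) are both on chromosome 11, at 69580359 to 69591873 and 40748552 to 40755311, and Mdm2 (ENSMUSG00000020184) is on chromosome 10 at 117688875 to 117710758. Of the 8, only Cdkn1a overlaps another annotated gene, an antisense model that is not among the listed genes. The counts are per gene, so p16INK4a and p19ARF cannot be told apart.

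After filtering, the expansion library held 1191 cells and 29390000 UMIs, with a median of 23184 UMIs per cell. The induction library held 1245 cells and 9201887 UMIs, with a median of 6765. Levels are given in CPM, a gene's summed UMIs scaled to the total of the library or class, and 3 UMIs are 0.102 CPM of expansion and 0.326 CPM of induction. All 10 hepatocyte markers were present, at a summed 47241 CPM for expansion and 70730 CPM for induction, and all cells of both held at least 3 of them. Of 6 bile duct markers, Krt7 was at 0 in both libraries, and the sum was 1426 and 746 CPM. At least 3 of these 6 were held by 311 expansion and 26 induction cells, at the unlike depths given above. No cell of either library held 3 markers of stellate, endothelial, macrophage, T, B, neutrophil or erythroid cells. Both libraries held cells with Xist and cells with Y-linked transcripts: 325 and 412 cells had Xist without Y-linked UMIs, and 505 and 503 had Y-linked UMIs without Xist. Another 275 expansion and 22 induction cells had both. Among cells with at least 3 Y-linked UMIs, Xist was at 1.59% of its level in Xist-only cells for expansion and at 0.194% for induction, a share in which free RNA and doublets cannot be told apart. The 2 libraries shared 4 cell barcodes. Scrublet marked 4 and 2 cells as doublets, too few to count as a working call, and doublets were left in.

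Between the media, none of the 8 genes differed by 2-fold. Cdkn1a and Cdkn1b were higher in the induction library and Cdkn2a and Cdkn2b lower, while Mdm2, Ccng1 and Trp53 were at nearly the same CPM in both. A gene was called when it had at least 10 CPM in the higher library, a ratio of at least 2 and an interval excluding a ratio of 1. By this rule 0 of the 8 were called, where 12.3% of 7220 measured genes were, 9.17% higher in induction and 3.17% lower. The interval of the ratio lay above 1 for 3 genes, below 1 for 2 and held 1 for 3. No share of all measured genes was taken for these interval counts. The median gene of the comparison, over 8480 genes with at least 50 UMIs in each library, was itself 0.22 higher in induction on the log2 scale. The median over the 8 genes was -0.01, or -0.23 relative to that gene.

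Cdkn1a, which arrests cells in G1, was counted with 3004 UMIs in expansion cells and 1644 in induction cells. That is 102 CPM (98.6 to 106) in expansion and 179 CPM (170 to 188) in induction, and the 2 intervals are well apart. The ratio was 1.75, or 0.81 on the log2 scale (0.72 to 0.89), and 0.59 (0.50 to 0.67) relative to the median gene. It was 0.59 (0.44 to 0.73) among Xist-only cells, where Cdkn1a was at 132 and 198 CPM. Among Y-only cells it was 0.88 (0.74 to 1.02), from 95.4 to 176 CPM. Cdkn1b, which holds cells in quiescence, was the least counted of the 8 genes, with 224 UMIs in expansion and 113 in induction. Its level was 7.62 CPM (6.66 to 8.69) in expansion and 12.3 CPM (10.1 to 14.8) in induction. The log2 ratio was 0.69 (0.35 to 1.02), and 0.47 (0.13 to 0.80) relative to the median gene.

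Both genes of the Cdkn2a-Cdkn2b locus were lower in the induction library. Cdkn2a had 72.3 CPM (69.2 to 75.4) in expansion and 55.7 CPM (51.0 to 60.8) in induction, from 2124 and 513 UMIs. Its log2 ratio of -0.37 (-0.52 to -0.23) became -0.59 relative to the median gene. The difference was -0.62 (-0.88 to -0.37) among Xist-only cells and -0.12 (-0.33 to 0.08) among Y-only cells, where the interval holds 0. Cdkn2b, the CDK4/6 inhibitor best known as a TGF-beta target, had 42.8 CPM (40.5 to 45.3) in expansion and 27.9 CPM (24.6 to 31.6) in induction. Its log2 ratio was -0.62 (-0.82 to -0.42), the lowest of the 8 genes, and -0.84 relative to the median gene. Cdkn2c went the other way, from 22.2 CPM (20.5 to 24.0) to 28.5 CPM (25.1 to 32.1), a log2 ratio of 0.36 (0.15 to 0.57). Relative to the median gene it was 0.14 (-0.07 to 0.35), so this difference was not seen on that scaling.

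Trp53 had 31.5 CPM (29.5 to 33.6) in expansion and 30.4 CPM (26.97 to 34.2) in induction, a log2 ratio of -0.05 (-0.25 to 0.14). Mdm2 had 62.9 CPM (60.04 to 65.8) and 62.2 CPM (57.2 to 67.5), a log2 ratio of -0.02 (-0.15 to 0.12). Ccng1 had 95.3 CPM (91.8 to 98.9) and 95.5 CPM (89.3 to 102), a log2 ratio of 0.00 (-0.11 to 0.11). For these 3 genes the intervals of the 2 libraries overlap. Relative to the median gene they were lower in induction, by log2 differences of -0.27 (-0.47 to -0.08) for Trp53, -0.24 (-0.37 to -0.10) for Mdm2 and -0.22 (-0.33 to -0.11) for Ccng1. The plot of levels in the 2 libraries shows the 8 genes side by side.

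**Figure D1:**
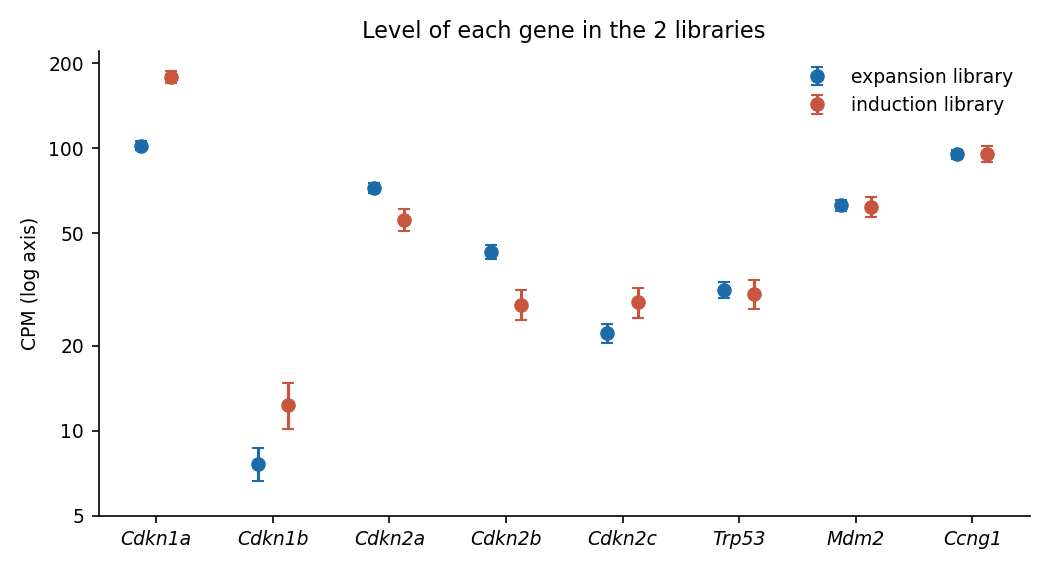
Level of each gene in CPM (log axis) in the expansion and induction libraries, with exact Poisson 95% intervals of the summed UMIs. Cdkn1a stands at 102 and 179 CPM with intervals well apart, Cdkn2a and Cdkn2b sit lower in induction, and the points of Trp53, Mdm2 and Ccng1 overlap.

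At single-cell depth these genes were thinly sampled. The median cell held 1 UMI of Cdkn1a in both libraries, and for the other 7 genes the median was 0 or 1. The highest count in a cell was 40 for Cdkn1a in expansion and 20 in induction. Mdm2 reached 42 and 10 UMIs, and Cdkn2a 29 and 18. The share of cells with a Cdkn1a UMI was 66.9% (64.2 to 69.6) in expansion and 52.4% (49.6 to 55.2) in induction, where cells held far fewer UMIs. With every cell thinned to 2000 UMIs, which left out 0 expansion and 14 induction cells, the order turned: 14.8% (12.8 to 16.9) in expansion and 25.3% (22.9 to 27.8) in induction. This is the order of the CPM. Thinned shares were 12.1% and 10.7% for Mdm2, 14.2% and 13.2% for Ccng1, and 6.30% and 4.55% for Trp53, with overlapping intervals in each case. They were 10.7% and 8.45% for Cdkn2a, 6.80% and 4.63% for Cdkn2b, 3.61% and 5.60% for Cdkn2c, and 2.18% and 2.44% for Cdkn1b. Here too the intervals overlap in each case. Log2 ratios of the thinned counts were -0.29 (-0.65 to 0.07) for Cdkn2a and 0.16 (-0.65 to 0.97) for Cdkn1b, whose intervals hold 0. They were -0.53 (-1.03 to -0.03) for Cdkn2b and 0.60 (0.05 to 1.17) for Cdkn2c. None of these shares was set against a cell type that lacks the genes, since no such type was found.

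The UMIs were not spread evenly over the cells. In thinned counts the variance of Cdkn1a was 1.45 times its mean in expansion and 1.503 times in induction, where counts drawn at 1 even rate give about 1. Genes with thinned means from 0.022 to 0.189 in expansion and from 0.024 to 0.349 in induction were taken for scale. Their median ratio was 1.01 in expansion and 1.02 in induction, and the 95th percentiles were 1.12 and 1.16. Cdkn1a lay above 99.5% and 98.9% of these genes, but its own mean is the top of both ranges. This rank is against genes of equal or lower mean, and genes of like mean alone were not compared. Cdkn2a stood at 1.20 and 1.30, Ccng1 at 1.16 and 1.29, and Mdm2 at 1.16 and 1.08. Cdkn1b was at 0.98 in both libraries. The top 119 expansion cells by Cdkn1a, 1 cell in 10, held 45.6% of its UMIs, and the top 124 induction cells held 48.3%.

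Cells with a UMI of Mki67 or Top2a, genes transcribed in dividing cells, were compared with cells without one inside each library. They numbered 470 of 1191 in expansion, or 39.5% (36.7 to 42.3), and 122 of 1245 in induction, or 9.80% (8.20 to 11.6). Thinned to 2000 UMIs the shares were 9.66% and 4.79%. Absence of a UMI does not show that a cell was not dividing: the detected cells were also deeper, at a median of 25258 against 21886 UMIs in expansion and 9985 against 6588 in induction. The class was checked on other genes. G2/M genes summed to 453 CPM in detected and 46.5 CPM in other expansion cells, and to 947 and 22.1 CPM in induction. S phase genes summed to 441 and 126 CPM in expansion and to 644 and 97.3 CPM in induction.

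Cdkn2c was the only 1 of the 8 genes called in this comparison, and it was higher in cells with Mki67 or Top2a in both libraries. In expansion it was at 14.4 CPM (12.6 to 16.3) in cells without them and 32.7 CPM (29.6 to 36.0) in cells with them. The ratio was 2.28, or 1.19 on the log2 scale (0.96 to 1.42). In induction it was at 22.7 CPM (19.5 to 26.3) and 65.9 CPM (52.4 to 81.9), a ratio of 2.90, or 1.54 (1.14 to 1.92). Cells without a UMI of Mki67 or Top2a thus held less Cdkn2c in both libraries, and the intervals do not overlap. Among cells with Y-linked UMIs and no Xist, the log2 ratios were 0.99 and 0.76, and neither passed the rule. In expansion, 1 of the 7 genes with 10 CPM or more was called, against 2.82% of 6742 measured genes, 2.7% higher and 0.119% lower. In induction 1 of 8 was called, against 9.85% of 7686 genes, 7.95% higher and 1.9% lower. Of expansion cells with Mki67 or Top2a, 49.1% (44.5 to 53.8) had a Cdkn2c UMI, against 28.2% (24.9 to 31.6) of the others. In induction the shares were 43.4% (34.5 to 52.7) and 14.8% (12.8 to 17.0). Thinned to 2000 UMIs they were 5.53% and 2.36% in expansion, with intervals that just overlap, and 13.1% and 4.78% in induction, with intervals apart.

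Cdkn1b was under 10 CPM in both classes of expansion cells, at 6.29 CPM without and 9.41 CPM with Mki67 or Top2a. The log2 ratio was 0.58 (0.19 to 0.97), and 1.18 (0.67 to 1.66) with the class set after thinning each cell to 2000 UMIs. With the class kept and the counts thinned to 2000 UMIs it was -0.06 (-1.36 to 1.17). Among Xist-only cells it was 0.90 (0.18 to 1.63), and among Y-only cells 0.61 (-0.05 to 1.28), where the interval holds 0. Thinned to 2000 UMIs, 2.13% of detected and 2.22% of other expansion cells had a Cdkn1b UMI, with overlapping intervals. In induction Cdkn1b was at 11.7 and 16.3 CPM, a log2 ratio of 0.48 (-0.30 to 1.19) whose interval holds 0. Only 20 Cdkn1b UMIs came from the 122 induction cells, which leaves a wide interval. Cdkn1a was at 111 CPM (106 to 117) in expansion cells without Mki67 or Top2a and 89.9 CPM (84.7 to 95.3) in cells with them, a log2 ratio of -0.31 (-0.42 to -0.20). With the class set after thinning each cell to 2000 UMIs it was -0.02 (-0.20 to 0.16), and it was -0.19 (-0.37 to -0.01) among Xist-only and -0.50 (-0.68 to -0.32) among Y-only cells. In induction it was at 179 CPM (170 to 188) and 177 CPM (155 to 203), a log2 ratio of -0.01 (-0.22 to 0.20). Cdkn1a UMIs were found in 332 of the 470 detected expansion cells, 70.6% (66.3 to 74.7), and in 82 of the 122 detected induction cells, 67.2% (58.1 to 75.4). Of cells without Mki67 or Top2a, 64.5% (60.9 to 68.0) in expansion and 50.8% (47.8 to 53.7) in induction had a Cdkn1a UMI. Thinned to 2000 UMIs, the shares with and without were 11.9% and 16.6% in expansion and 32.0% and 24.5% in induction. The intervals overlap in both libraries. The p21 transcript was thus found in cells with Mki67 or Top2a in both media, and was common in the other cells too. The part of free RNA and of doublets in these shares was not tested.

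Cdkn2a was lower in expansion cells with Mki67 or Top2a, and less firmly so in induction. In expansion it was at 85.5 CPM (81.1 to 90.03) without and 54.5 CPM (50.5 to 58.7) with them, a log2 ratio of -0.65 (-0.78 to -0.52), and of -0.60 (-0.85 to -0.35) with the class set after thinning. In induction Cdkn2a was at 57.7 CPM (52.5 to 63.2) and 43.1 CPM (32.3 to 56.4), a log2 ratio of -0.42 (-0.86 to -0.01) resting on 53 UMIs in the detected cells. That interval held 0 under several alternatives, such as no cell filter (-0.85 to 0.00), every cell weighted equally (-0.79 to 0.06) and the class set after thinning (-1.26 to 0.05). Thinned to 2000 UMIs, 9.02% of detected and 8.39% of other induction cells had a Cdkn2a UMI, with overlapping intervals. Cdkn2b was at 48.6 CPM and 35.1 CPM in expansion, a log2 ratio of -0.47 (-0.64 to -0.30). The induction levels were 26.97 and 34.2 CPM, and the log2 ratio of 0.34 (-0.17 to 0.82) holds 0, though with the class set after thinning it was 0.83 (0.20 to 1.41). The 2 INK4 genes of the locus thus had lower levels in detected expansion cells, opposite to Cdkn2c.

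Trp53 differed little by class. It was at 30.3 CPM without and 33.2 CPM with Mki67 or Top2a in expansion, a log2 ratio of 0.13 (-0.06 to 0.32), and at 29.5 and 36.6 CPM in induction, a log2 ratio of 0.31 (-0.18 to 0.78). Mdm2 was at 67.5 CPM and 56.6 CPM in expansion, a log2 ratio of -0.25 (-0.39 to -0.12). With the class set after thinning the expansion value was -0.07 (-0.30 to 0.16), and it was -0.01 (-0.25 to 0.21) among Xist-only and -0.55 (-0.78 to -0.31) among Y-only cells. Mdm2 was at 60.6 and 72.4 CPM in induction, a log2 ratio of 0.26 (-0.09 to 0.59). Ccng1, whose protein recruits the PP2A phosphatase to MDM2, was at 107 CPM (102 to 112) and 79.1 CPM (74.2 to 84.1) in expansion, a log2 ratio of -0.44 (-0.55 to -0.33). With the class set after thinning it was -0.17 (-0.37 to 0.02), where the interval holds 0. In induction it was at 89.8 CPM (83.3 to 96.6) and 133 CPM (113 to 155), a log2 ratio of 0.56 (0.31 to 0.81), and of 0.76 (0.43 to 1.08) with the class set after thinning. The difference between the 2 class ratios was not tested. In induction, hepatocyte markers summed to 50273 CPM in detected and 73882 CPM in other cells, and their part in these ratios was not tested.

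Grouping cells by the number of Mki67 and Top2a UMIs spread these differences out. In expansion there were 721 cells with 0 UMIs, 261 with 1 or 2, 77 with 3 to 5 and 132 with 6 or more. Cdkn2c stood at 14.4, 16.5, 32.7 and 59.8 CPM in these groups in turn. The first 2 values have overlapping intervals, and the highest group, at 52.4 to 67.9, is apart from all others. In induction, with 1123, 63, 38 and 21 cells, Cdkn2c stood at 22.7, 42.2, 80.1 and 96.7 CPM. There the 2 highest groups overlap, at 55.2 to 113 and 61.9 to 144. Cdkn2a was lower in each further expansion group than in cells with 0 UMIs: 85.5, 67.0, 41.7 and 40.0 CPM, the last 2 indistinguishable by their intervals. In induction it was at 57.7, 61.5, 17.0 and 44.3 CPM, the last 2 from 7 and 11 UMIs. Cdkn2b stood at 48.6, 42.1, 33.7 and 24.1 CPM in expansion, where the lowest and highest groups do not overlap. Cdkn1a stood at 111, 91.7, 79.9 and 92.0 CPM in expansion and at 179, 135, 199 and 238 CPM in induction. Ccng1 stood at 107, 84.0, 71.8 and 74.5 CPM in expansion and at 89.8, 116, 124 and 185 CPM in induction. Cells with more Mki67 and Top2a UMIs were also deeper, with a median of 28447.5 UMIs in the highest expansion group.

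**Figure D2:**
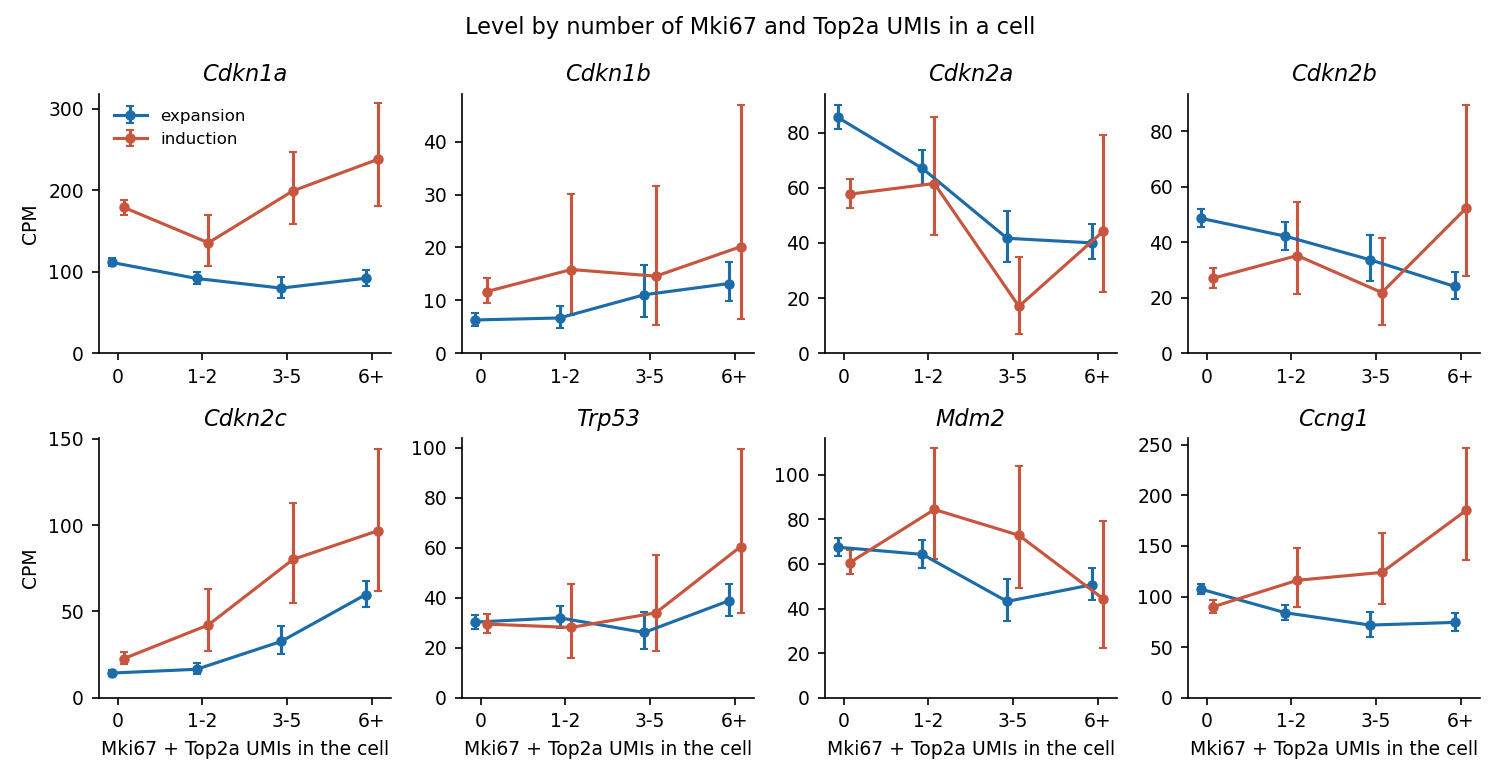
Level of each gene in CPM (vertical axis from 0, scaled per panel) in cells grouped by their Mki67 plus Top2a UMIs, in the expansion and induction libraries, with exact Poisson 95% intervals. From the leftmost to the rightmost group, Cdkn2c stands at 14.4 and 59.8 CPM for expansion and 22.7 and 96.7 CPM for induction, Cdkn2a stands at 85.5 and 40.0 CPM for expansion, and the Ccng1 lines of the libraries run apart.

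The class ratios were next taken among Xist-only and Y-only cells, since the share of cells with Mki67 or Top2a was not the same in them in induction. It was 58 of 412 Xist-only cells, or 14.1%, and 44 of 503 Y-only cells, or 8.75%. In expansion it was 40.9% and 37.0%. Cdkn2c was higher in cells with Mki67 or Top2a on every one of these splits, but passed the 2-fold rule among Xist-only cells alone. Among them its log2 ratio was 1.496 (1.07 to 1.93) in expansion and 1.70 (1.10 to 2.29) in induction. Among Y-only cells it was 0.99 (0.59 to 1.39) in expansion, just short of 2-fold, and 0.76 (-0.09 to 1.52) in induction, where the interval holds 0. The Ccng1 ratio in induction was 0.99 (0.64 to 1.33) among Xist-only cells and -0.40 (-0.94 to 0.10) among Y-only cells. In expansion it was -0.34 (-0.54 to -0.15) and -0.46 (-0.65 to -0.28). The higher Ccng1 of detected induction cells was thus seen among Xist-only cells and not among Y-only cells. Cdkn1a in induction was at 0.16 (-0.13 to 0.43) among Xist-only and -0.52 (-0.94 to -0.12) among Y-only cells. Cdkn2a in induction was at -1.05 (-1.87 to -0.32) and -0.23 (-0.90 to 0.38). Whether these splits differ from each other was not tested, and cells of 1 kind may come from 1 animal or several.

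**Figure D3:**
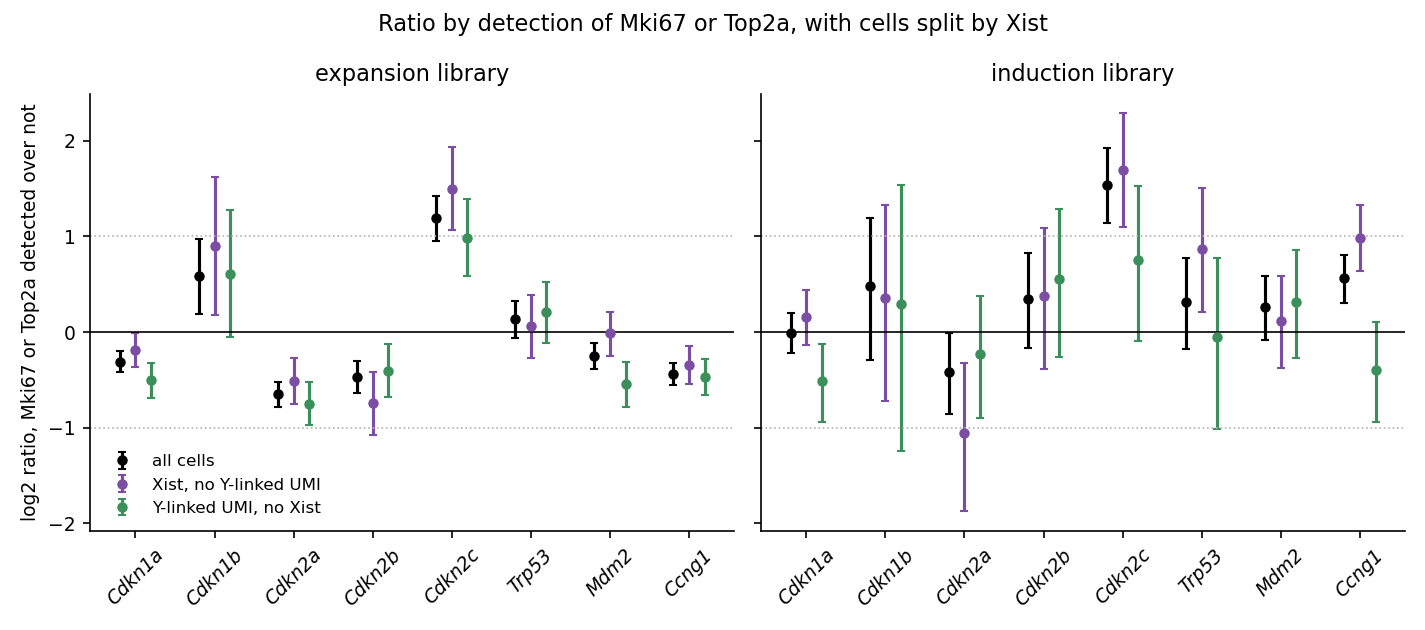
Log2 ratio of CPM in cells with a Mki67 or Top2a UMI over cells without, in all cells, in cells with Xist and no Y-linked UMI, and in cells with a Y-linked UMI and no Xist, with exact 95% intervals. The dotted lines mark 2-fold; the Cdkn2c points lie above 0, with 1 interval that holds 0, and Ccng1 in induction stands at 0.99 among Xist-only and -0.40 among Y-only cells.

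Cdkn1a, Ccng1, Mdm2, Cdkn2a and Cdkn2b varied together over single cells, and Cdkn1b and Cdkn2c had r near 0 with them. Pearson's r was taken over the cells of a library on the log of 1 plus counts per 10000, as a description with no p, since the cells share a library and its depth. Of the 28 pairs, Cdkn1a with Ccng1 had the highest r in expansion, 0.52 over 1191 cells, and 0.33 over 1245 cells in induction. Cdkn1a with Mdm2 had 0.43 and 0.25, and Mdm2 with Ccng1 had 0.39 and 0.34. Cdkn2a, which is not classed with the p53 targets here, had 0.46 and 0.22 with Cdkn1a and 0.44 and 0.33 with Ccng1. With its neighbour Cdkn2b it had 0.40 and 0.31. Trp53 had r between 0.07 and 0.17 with these 5 genes over both libraries. Cdkn2c with Cdkn1a had -0.01 and -0.02, and Cdkn2c with Cdkn1b 0.12 and 0.02. Sparse counts lower r, so values near 0 for Cdkn1b and Cdkn2c do not by themselves show that they vary apart from the others. In induction Cdkn2b had a UMI in 13.9% of cells and Cdkn2c in 17.6%, and r with Cdkn1a was 0.21 for Cdkn2b and -0.02 for Cdkn2c. In expansion Cdkn2b was found in more cells than Cdkn2c, 51.6% against 36.4%. The part of sparse counts in these values was not tested. The highest r of Cdkn1b with any of 3023 commonly detected genes was 0.15 in expansion and 0.11 in induction. The median over all pairs was 0.11 in both libraries.

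For scale, the r of Cdkn1a with 3022 commonly detected genes had a median of 0.00 and a 95th percentile of 0.16 in expansion, and of 0.02 and 0.12 in induction. The r of the 8 genes with the log of a cell's total UMIs lay between -0.02 and 0.24. The Cdkn1a and Ccng1 pair stood at 0.55 among Xist-only and 0.52 among Y-only expansion cells, and at 0.41 and 0.26 in induction. Among cells with Mki67 or Top2a it stood at 0.48 in expansion and 0.38 in induction, and among cells without at 0.54 and 0.32. The pair of Cdkn1a and Cdkn2a was less even: 0.50 and 0.36 in expansion cells without and with Mki67 or Top2a, and 0.24 and 0.01 in induction cells, the last over 122 cells. Joint detection followed the same pattern. Cdkn1a, Mdm2 and Ccng1 UMIs were all present in 460 expansion cells, 38.6%, where the product of the 3 single shares is 30.5%. In induction they were all present in 152 cells, 12.2%, against a product of 4.65%. With every cell thinned to 2000 UMIs the shares were 1.18% against a product of 0.254% in expansion and 0.975% against 0.359% in induction, from 14 and 12 cells. Of expansion cells 19, or 1.60%, held no UMI of any of the 8 genes, and of induction cells 236, or 19.0%.

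**Figure D4:**
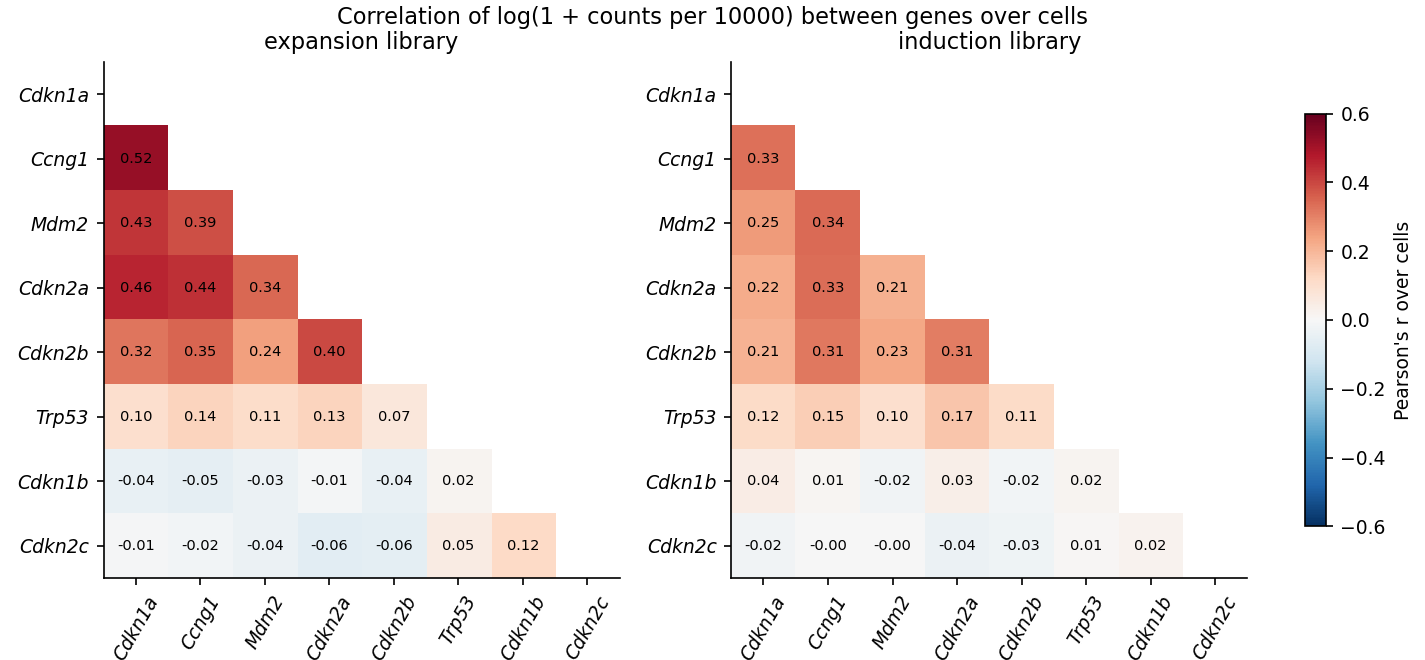
Pearson's r between pairs of the 8 genes over the cells of each library, on the log of 1 plus counts per 10000; colour stands for r. Cdkn1a, Ccng1, Mdm2, Cdkn2a and Cdkn2b form a block of positive values, with Cdkn1a and Ccng1 at 0.52 in expansion and 0.33 in induction. The rows of Cdkn1b and Cdkn2c, both sparsely counted, stay near 0 apart from 0.12 for their own pair in expansion.

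The genes whose cell-to-cell pattern was most like each member were ranked by the lower of the 2 libraries' r over 3023 genes. For Cdkn1a they were Ccng1 (0.33), Phlda3 (0.31), Bax (0.27), Trp53inp1 (0.27) and Rps27l (0.26). For Ccng1 they were Bax (0.37), the cyclin gene Ccnd2 (0.35), the galectin gene Lgals1 (0.35), Mdm2 (0.34) and the transcription factor gene Sox4 (0.34). For Mdm2 they were Ccng1 (0.34), Phlda3 (0.30), Sh3bgrl3 (0.29), Rhoc (0.26) and Cdkn1a (0.25). For Cdkn2a they were the keratin gene Krt18 (0.35), the vimentin gene Vim (0.34), Ccng1 (0.33), Ccnd2 (0.33) and Bax (0.33). The other 4 genes had a UMI in under 20% of induction cells and were not ranked. Against the summed UMIs of the other p53 targets, r was 0.57 in expansion and 0.41 in induction for Cdkn1a, 0.56 and 0.45 for Ccng1, 0.52 and 0.32 for Cdkn2a, and 0.41 and 0.32 for Mdm2. It was 0.13 in both libraries for Trp53 and -0.01 in both for Cdkn2c. Rps27l was by far the most counted gene of this sum, at 1572 CPM in expansion and 1612 CPM in induction, so these r are weighted towards it. Against summed G2/M genes r was 0.35 and 0.18 for Cdkn2c and between -0.10 and 0.14 for the others. Against summed hepatocyte markers it was negative for Ccng1, at -0.32 and -0.36, for Mdm2, at -0.33 and -0.31, and for Cdkn1a, at -0.32 and -0.19. It was also negative for Cdkn2a, at -0.18 and -0.24, for Cdkn2b, at -0.19 and -0.29, and for Trp53, at -0.20 and -0.14. For Cdkn1b and Cdkn2c it lay between -0.05 and 0.01.

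A list of 31 other p53 targets, of which 30 were found and 23 had at least 10 CPM in the higher library, gave the surroundings of Cdkn1a, Mdm2 and Ccng1. In induction 5 were called higher and 0 lower, against 9.17% and 3.17% of all measured genes. The interval lay above 1 for 14, below 1 for 3 and held 1 for 6. No share of all measured genes was taken for these interval counts. The median log2 ratio was 0.27, which is 0.05 above the median gene, with 12 targets above that gene and 11 below it. Plk3, a polo-like kinase, went from 4.66 to 18.0 CPM (log2 ratio 1.95, 1.62 to 2.29). Gadd45a, a growth arrest and DNA damage gene, went from 10.0 to 29.5 CPM (1.56, 1.31 to 1.80). Trp53inp1, which encodes a p53-inducible nuclear protein, went from 99.5 to 251 CPM (1.34, 1.26 to 1.42). Ddit4, an inhibitor of mTORC1, went from 16.4 to 34.9 CPM, and the stress cytokine gene Gdf15 from 20.8 to 42.2 CPM. At the other end, the TRAIL receptor gene Tnfrsf10b went from 13.9 to 8.04 CPM (-0.79, -1.17 to -0.43) and the apoptosis effector Bax from 281 to 222 CPM (-0.34, -0.41 to -0.27). Rps27l, the most counted of the list, was at 1572 and 1612 CPM. Scaled to the median gene, 3 were called higher and 1 lower. Cdkn1a lay among the upper genes of this list and Mdm2 and Ccng1 below its median.

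**Figure D5:**
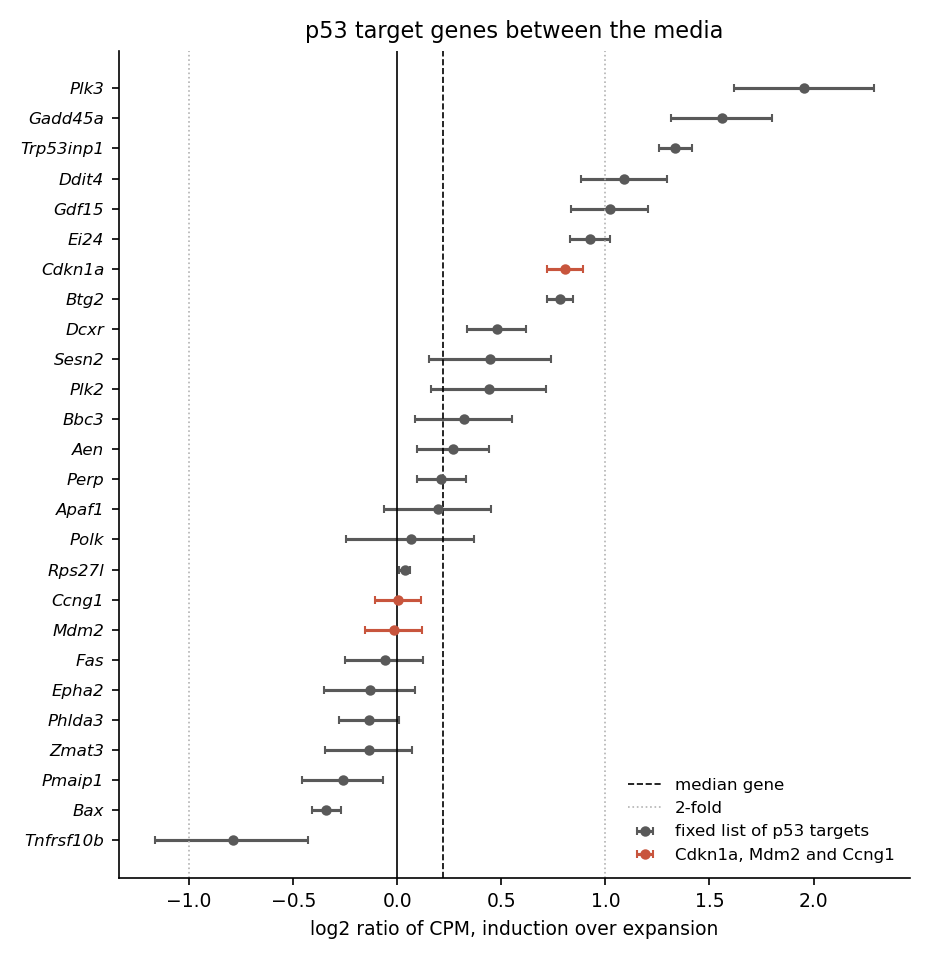
Log2 ratio of CPM, induction over expansion, for 23 other p53 targets and for Cdkn1a, Mdm2 and Ccng1, with exact 95% intervals; the dashed line is the median gene at 0.22 and the dotted lines mark 2-fold. Plk3 stands highest at 1.95 and Tnfrsf10b lowest at -0.79, with Cdkn1a at 0.81 and Mdm2 and Ccng1 close to 0.

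By detection of Mki67 or Top2a in expansion, 0 of 22 measured targets of this list were called, against 2.82% of all measured genes. The interval lay above 1 for 1 and below 1 for 11, counts for which no share of all measured genes was taken. The median log2 ratio of the 22 targets was -0.19, against 0.09 for the median gene, and 21 of the 22 lay below that gene. Trp53inp1 was lowest, at 117 CPM without and 75.6 CPM with Mki67 or Top2a (-0.63, -0.75 to -0.52), and the PUMA gene Bbc3 next, at 21.5 and 15.4 CPM (-0.48, -0.74 to -0.22). The values for Cdkn1a, Mdm2 and Ccng1 of -0.31, -0.25 and -0.44 lie within this range. In induction, the median over 23 targets was 0.18, against 0.12 for the median gene. Tnfrsf10b was called higher, from 6.65 to 17.1 CPM, and Gadd45a lower, from 32.0 to 13.02 CPM, against 7.95% and 1.9% of all measured genes.

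Regulators and partners of the 8 genes were counted from fixed lists, to be read against the same shares of all measured genes: 9.17% higher and 3.17% lower between the media, 2.7% and 0.119% by class in expansion, and 7.95% and 1.9% by class in induction. Of 9 measured p53 regulators 0 were called between the media. The interval lay above 1 for 6, a count for which no share of all measured genes was taken. Mdm4, the MDM2 partner that also binds p53, was at 41.8 CPM in expansion and 43.7 CPM in induction. The kinase gene Hipk2 had the highest ratio of this list, from 7.38 to 13.3 CPM (log2 ratio 0.84, 0.51 to 1.17). By detection of Mki67 or Top2a, 0 of 7 measured regulators were called in expansion and 1 of 10 in induction. That gene was Chek1, at 1.25 CPM without and 11.4 CPM with them (3.18, 1.91 to 4.51), from 10 and 14 UMIs. Of 6 measured genes of p27 turnover and transcription, Foxo1, a transcription factor of Cdkn1b, was called higher in induction, from 15.7 to 44.99 CPM (1.52, 1.32 to 1.71), and 0 were called lower. In cells with Mki67 or Top2a, 2 of 7 were called higher in each library: Skp2 and Cks1b, whose proteins mark p27 for degradation. In expansion Cks1b went from 44.4 to 99.5 CPM, and in induction from 34.1 to 161 CPM. Cdkn1b was at 9.41 CPM in the same expansion cells and 6.29 CPM in the others, as given above.

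The kinases and cyclins that these inhibitors bind gave 1 of 9 called between the media, Ccne1 (cyclin E1), which was lower in induction, at 13.3 and 5.22 CPM (-1.35, -1.81 to -0.91). Cdk4, the main partner of the INK4 proteins, went from 158 to 90.3 CPM (-0.81, -0.92 to -0.70). Ccnd1 (cyclin D1) was at 553 and 558 CPM. In cells with Mki67 or Top2a, Ccna2, Ccnb1, Cdk1, Ccne1 and Cdk2 were called higher in both libraries. Ccnd2 was lower there, at 190 and 117 CPM in expansion (-0.70, -0.79 to -0.61) and 143 and 93.6 CPM in induction. Of 6 measured pocket proteins and other inhibitors, Rb1, which encodes the retinoblastoma protein, was called higher in induction, from 5.27 to 12.1 CPM (1.19, 0.83 to 1.56). In cells with Mki67 or Top2a, 5 of 9 measured genes of this list were called higher in induction. Rbl1, which encodes the pocket protein p107, was at 3.01 CPM without and 22.0 CPM with them, and Cdkn2d (p19INK4d), the remaining INK4 gene, at 3.01 and 19.5 CPM (2.70, 1.82 to 3.58). Lin54 was at 3.89 and 13.8 CPM, Tfdp2 at 8.65 and 19.5 CPM, and Rb1 at 10.3 and 23.6 CPM. In expansion 1 of 5 was called, Rbl1, at 3.86 and 13.8 CPM. Of 7 Polycomb genes, which silence the Cdkn2a locus in dividing cells of many tissues, 0 were called between the media. Ezh2 was called higher in cells with Mki67 or Top2a, at 8.42 and 21.3 CPM for expansion and 5.52 and 29.3 CPM for induction, and was 1 of 7 called in each. Bmi1 was at 42.8 and 43.6 CPM in expansion and at 37.3 and 53.7 CPM in induction, a log2 ratio there of 0.53 (0.12 to 0.92).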

How the data were processed

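Droplet single-cell libraries (10x Genomics) of 1 expansion and 1 induction culture were used, with groups from the medium in the labels. The deposited values are UMI counts per gene and barcode, not normalized, made by the authors with Cell Ranger 2.1.1 on mm10, as the submitters' processing notes state. No annotation release is given in the sources used here. Both libraries list the same 28692 genes.

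Barcodes needed at least 500 genes and at most 25% mitochondrial UMIs, which dropped 17 in expansion and 30 in induction. UMIs were summed over cells and divided by the total to give CPM. Ratios carry exact conditional binomial, levels exact Poisson and shares exact Clopper-Pearson intervals at 95%, for counting error only; no test between media or classes was made. Cells were thinned to 2000 UMIs without replacement with a fixed seed to compare shares. The ratio step was tested on simulated data. Analyses used Python 3.11.15, numpy 2.4.6, scipy 1.17.1, pandas 2.3.3 and scanpy 1.11.5 (Scrublet). Xist-only and Y-only cells were split with 4 Y-linked genes.

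The 8 genes, the gene lists, the call rule and the alternatives were chosen with earlier results of these data known. Beside the 8 genes, Mki67 and Top2a, genes were named by rule: of each list the most abundant, the 2 highest and 2 lowest ratios and those called, and for likeness 5 genes with an r of at least 0.2 and a UMI in at least 20% of cells of both libraries. Not all genes that the rule allows are named. Cop1 was matched by its older symbol, and 1 listed p53 target, Ptprv, was not found. Alternatives were other cell filters, scalings, weights, doublet removal, Xist or Y cells, CPM minimums and class cutoffs.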

Additional observations from a re-analysis of the deposited data

Results flagged for a closer look

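Ccng1 drew attention because its class ratio pointed opposite ways in the 2 libraries, with intervals on either side of 0. The log2 ratio of cells with Mki67 or Top2a over cells without was -0.44 in expansion (-0.55 to -0.33) and 0.56 in induction (0.31 to 0.81). With the class set after thinning each cell to 2000 UMIs, the expansion value was -0.17 (-0.37 to 0.02), whose interval holds 0, and the induction value 0.76 (0.43 to 1.08). The difference between the libraries was not tested, since cells of 1 library are not replicates. In induction the value rested on 163 UMIs in the detected cells and was -0.40 (-0.94 to 0.10) among Y-only cells. Hepatocyte markers, depth and Xist also differed between the 2 classes in induction, with Xist at 1242 CPM in detected and 546 CPM in other cells, and their part was not tested.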

How the results depend on the processing

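No paired analysis was possible because each medium has 1 library. The count of called genes among the 8 stayed at 0 between the media under 10 alternatives, which leaves out the CPM minimums. Of these, doublet removal took out only 4 expansion and 2 induction cells, so it could change little here or in the sign counts below. For cells with Mki67 or Top2a in expansion, the main count of 1 became 0 among Y-only cells and 0 at a minimum of 50 CPM, 2 with at least 3 Mki67 and Top2a UMIs (Cdkn2a joined as lower) and 2 with detection after thinning (Cdkn1b joined as higher). In induction, 1 became 2 among Xist-only cells, 0 among Y-only cells and 2 with at least 3 UMIs. Of other p53 targets, 5 called between the media became 3 among Xist-only cells and 1 at a minimum of 50 CPM, which left 8 genes measured. In expansion by class, 0 called became 1 without mitochondrial and ribosomal protein genes, 1 without a CPM minimum and 1 with at least 3 UMIs. Apart from the minimums, which change the genes measured, the cause was not tested. The log2 ratios of the 8 genes kept their sign in 69 of 80 alternative values between the media, 102 of 104 by class in expansion and 93 of 104 in induction, the CPM minimums left out, since they do not bear on a ratio. Keeping a sign says nothing of the interval: with the class set after thinning, the expansion intervals of Cdkn1a, Mdm2 and Ccng1 held 0. Cdkn2c by class ranged from 0.99 to 1.82 in expansion and from 0.76 to 1.93 in induction. With fewer UMIs in induction, and 122 cells with Mki67 or Top2a there, class ratios of the less counted genes are imprecise.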
